A study of Chrysanthemum x morifolium with 4 samples.

Results

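In a study of cold in chrysanthemum leaves, a small set of unigenes stood far higher after sudden freezing than in any other library. The set held 118 of the 93837 unigenes in the table. Its members were chosen by their deposited FPKM (counts scaled by the length of the unigene and the total of the library): at least 5 FPKM in leaves frozen without acclimation, and at least 4 times the largest of the control, acclimated, and acclimated and frozen values. Those values therefore describe the set and support nothing. A unigene is a transcript assembled from the reads, and the files pair none of these identifiers with a gene name, so the members carry no known function here.

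Leaves came from seedlings of the cultivar Jinba (Chrysanthemum x morifolium), which were raised from tissue culture and potted. The records of all 4 groups give a photoperiod of 16 h, with 25 °C by day and 22 °C by night. The 4 groups had 1 library each: untreated control, acclimated at 4 °C for 24 h, acclimated in the same way and then held at -4 °C for 4 h, and held unacclimated at -4 °C for 4 h. Values given as 4 numbers follow this order of treatments. Leaves of 3 replicates were pooled for each library, which leaves the variation among plants unmeasured, and none of the comparisons has a test. Total counts were 14024558 to 15781435 per library, and all intervals cover counting error only. Without gene names the leaf label could not be checked against marker genes, and fewer cells of a type cannot be told apart from less RNA per cell.

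Cold acclimation is the gain in freezing tolerance that many temperate plants make during a spell at low temperatures above freezing. It is known to run through CBF/DREB transcription factors, which switch on cold-responsive genes, and to bring changes in membrane lipids, sugars and protective proteins. When ice forms outside the cells of an unprepared leaf, water is drawn out, membranes can be damaged and reactive oxygen accumulates. Transcripts far higher after sudden freezing than when acclimation came first differ between the libraries of these leaf states at the same freezing temperature.

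Most members were scarce in the libraries other than the one in which the rule required a high level. The median level was 0.814 FPKM in the control, 0.912 FPKM in acclimated leaves, 1.43 FPKM in acclimated and frozen leaves and 15.0 FPKM in leaves frozen without acclimation. In that last library the members ran from 5.15 to 288 FPKM. No count was seen for 23 members in the control, for 22 in acclimated leaves and for 8 in acclimated and frozen leaves, where a count of 0 allows up to 0.190, 0.198 and 0.214 CPM (counts scaled by library total only), taking 3 counts as the limit. Only 3 members had no count in any of those 3 libraries, and 25 stayed under 1 FPKM in all of them. At the other end, 33 members reached 5 FPKM in some other library, so these were not scarce everywhere else.

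Together the members took 0.0352% of control counts (exact 95% binomial interval 0.0343 to 0.0362%), 0.0380% of acclimated counts (0.0370 to 0.0390%), 0.0714% of acclimated and frozen counts (0.0700 to 0.0728%) and 0.460% of counts after freezing alone (0.457 to 0.464%). A few members made up much of this, since the 10 most abundant held 42.0% of all member counts in leaves frozen without acclimation. The most abundant member ranked only 240 among all unigenes of that library. The set was thus a minor part of the frozen leaf transcriptome.

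**Figure D1:**
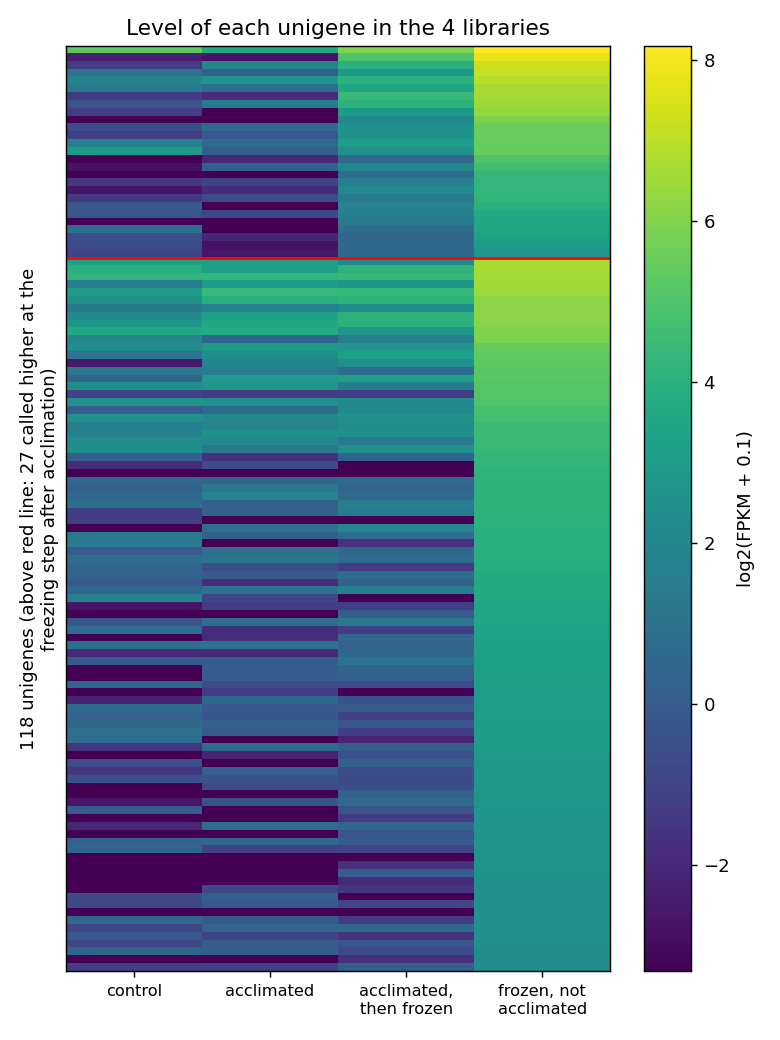
Each row is 1 of the 118 unigenes, each column 1 library, and the colour gives log2(FPKM + 0.1). Rows above the red line are the 27 unigenes called higher when acclimated leaves were frozen, and within each block rows are ordered by the level after freezing alone. The right-hand column is the brightest in every row because it chose the rows, and the third column is brighter in the upper block.

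The member highest after freezing alone was c94337.graph_c0, which had 39.3 FPKM in the control, 12.6 FPKM in acclimated leaves, 62.5 FPKM in acclimated and frozen leaves and 288 FPKM in leaves frozen without acclimation. It was thus well expressed before any cold, lowest in acclimated leaves and above the control in both frozen libraries. The second, c108642.graph_c0, had 0.0939, 0.0488, 32.1 and 211 FPKM in treatment order. It was nearly absent from both unfrozen libraries, with 2 counts in the control and 1 count in acclimated leaves, and abundant in both frozen ones. The last of the 10 highest, c107363.graph_c0, had 18.2, 18.9, 20.7 and 95.5 FPKM. It stood at almost the same level in the first 3 libraries, and freezing without acclimation was the sole treatment in which it differed by more than 2-fold.

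**Figure D2:**
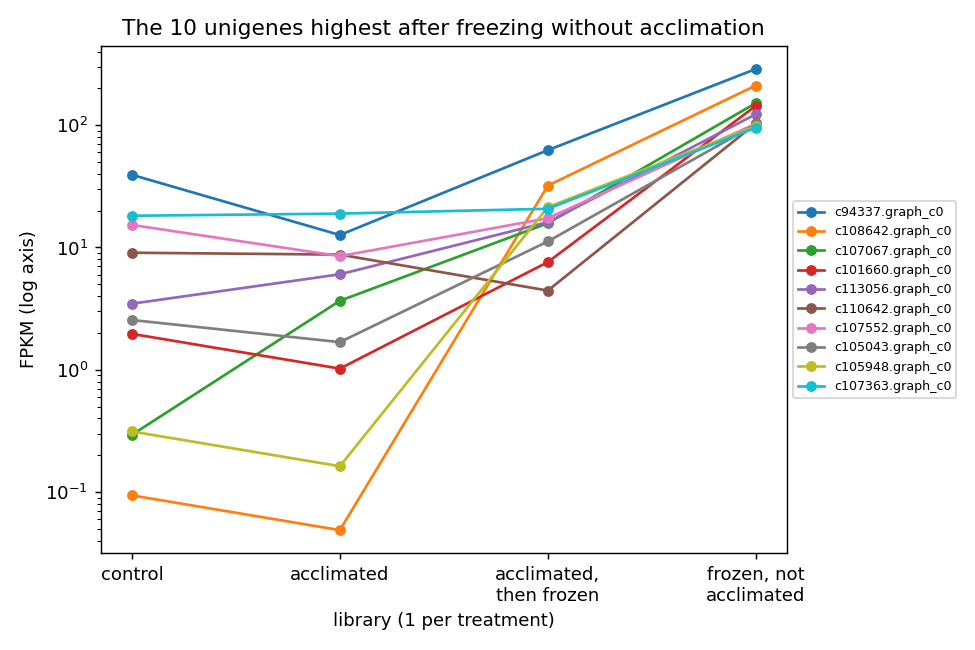
FPKM on a log axis of the 10 unigenes highest after freezing without acclimation, with 1 point per library and lines that only join the points of a unigene. All 10 stand between 95.5 and 288 FPKM on the right, whereas in the control they range from 0.0939 to 39.3 FPKM, and 9 of them (all but c110642.graph_c0) are higher in acclimated and frozen than in acclimated leaves.

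The gap that chose the members was wide for some and narrow for many. It was 4 to 5 times the next highest library for 34 members, 5 to 8 times for 46, 8 to 16 times for 23 and 16 times or more for 12, apart from the 3 with no count elsewhere. With libraries scaled by TMM, which corrects for a few abundant transcripts, the whole 95% counting interval of the ratio lay beyond 2-fold for 109 members and beyond 4-fold for 44. The rule selected on this ratio, so these counts only describe the members. The intervals of this ratio do not allow for that selection. The member c75300.graph_c0 had 4, 3, 3 and 310 counts in treatment order. Its ratio to the highest other library was 76.1 (95% interval 29.4 to 281), so it was near the floor of detection everywhere but in that library. The member c38749.graph_c0 had no count in 3 libraries and 103 counts after freezing alone. With the control set to the limit of 3 counts it was 33.7-fold higher than there. The lower limit of the 95% interval was 26.9-fold.

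The thresholds cut through a continuous range. The 3 members nearest inside the 4-fold limit had 6.34 to 20.8 FPKM after freezing alone and FPKM ratios of 4.00, 4.02 and 4.04 to the next library. The 3 unigenes nearest outside it had 5.30 to 8.61 FPKM and ratios of 3.94, 3.91 and 3.91. At the limit on level, the 3 lowest members had 5.15, 5.17 and 5.18 FPKM, and the 3 unigenes just left out had 4.98, 4.87 and 4.78 FPKM. Depth was modest for many members: 71 had at least 100 counts in leaves frozen without acclimation, 22 had fewer than 50, and the fewest was 20.

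Most unigenes raised by sudden freezing were not of this kind. Against the control alone, 1141 unigenes met the same limits of 5 FPKM and 4-fold after freezing without acclimation, and the 118 members were 10.3% of them. Of all 1141, 591 (51.8%) missed the rule because acclimated and frozen leaves alone came too close. A further 35 (3.07% of the 1141) missed it because acclimated leaves alone did, and 397 (34.8%) because both did. In 487 (42.7%) of the 1141 the level in acclimated and frozen leaves equalled or exceeded that in leaves frozen without acclimation. With TMM this held for 525 of 1004 (52.3%) and with median-of-ratios factors for 544 of 967 (56.3%), so whether it was most of them turned with scaling. The 1023 raised unigenes outside the set had medians of 1.82, 4.04, 20.5 and 19.4 FPKM in treatment order. With FPKM as deposited, their medians were thus similar in both frozen libraries, which does not show that single unigenes were level. The members had medians there of 1.43 and 15.0 FPKM. The contrast between these medians of members and other raised unigenes comes from the rule.

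How many unigenes the rule found depended on how libraries were scaled. FPKM as deposited is scaled by total counts, and relative to TMM this raised every ratio of leaves frozen without acclimation to the control by 0.16 on the log2 scale and lowered the ratio of acclimated and frozen leaves to them by 0.26. With FPKM rescaled by TMM the rule found 88 unigenes, and with median-of-ratios factors 80, all of them among the 118. The same rule with another library in the leading place found 92 unigenes for the control, 53 for acclimated leaves and 131 for acclimated and frozen leaves. With TMM these numbers were 102, 56 and 190, so the number for acclimated and frozen leaves was 131 against 118 as deposited and 190 against 88 after rescaling.

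**Figure D3:**
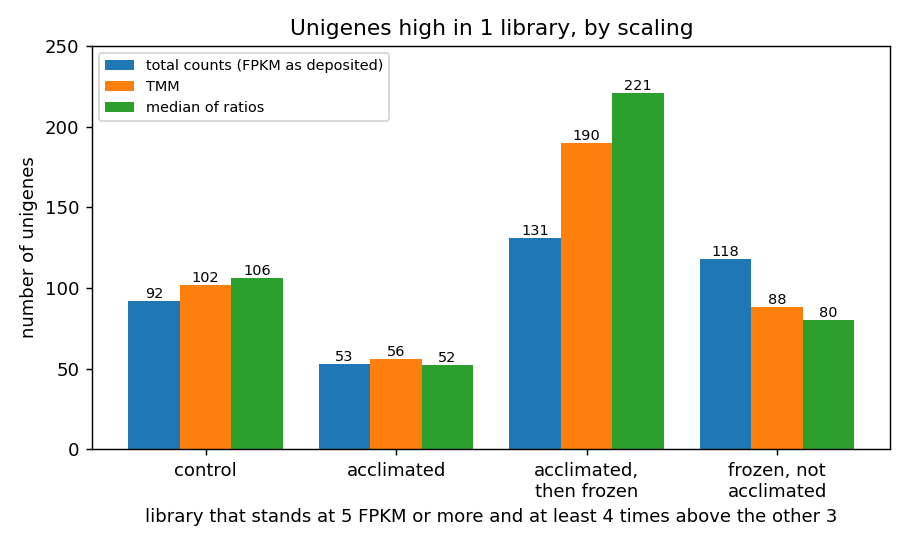
Bars count the unigenes that stand at 5 FPKM or more in 1 library and at least 4 times above the other 3, for each library in turn and for 3 ways of scaling. For leaves frozen without acclimation the number goes from 118 (total counts) to 88 (TMM) and 80 (median of ratios), while for acclimated and frozen leaves it goes from 131 to 190 and 221.

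Part of the set was higher in acclimated and frozen leaves than in acclimated leaves. A call, higher or lower, needed the whole 95% interval of the TMM-scaled ratio to lie beyond 2-fold. Acclimated and frozen leaves were compared with acclimated leaves, a ratio on which the rule put no order, since it bounded both libraries in the same way. Of the 114 members with a count in either library, 27 were called higher (23.7%) and 0 lower. Over all 77713 unigenes compared, 3.46% were called higher and 0.926% lower. Of 18674 other unigenes at 5 FPKM or more in leaves frozen without acclimation, 7.19% were called higher and 1.30% lower. Depth differed between these sets, since those other unigenes had medians of 239 counts in acclimated leaves and 214 counts in acclimated and frozen leaves, against 7.5 and 15 counts for the members. The median log2 ratio of the members was 0.85 (0.56 with counts of 0 set to the limit of 3), against -0.04 over all unigenes compared, where the sign turned with that setting (0.08).

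The 27 members called higher at this step had medians of 0.400 FPKM in the control, 0.376 FPKM in acclimated leaves, 4.39 FPKM in acclimated and frozen leaves and 43.6 FPKM in leaves frozen without acclimation. The other 91 members had medians of 1.01, 0.988, 1.06 and 11.1 FPKM in treatment order. The call itself sets much of the gap between these groups in the acclimated and the acclimated and frozen libraries. The median log2 ratio of the 27 at the step was 2.93 (2.97 with zeros at the limit), and after it they stood at a median of 14.3% of the level in leaves frozen without acclimation (range 4.55 to 23.0%), a share that the rule held at 25% or less for every member. The largest lower limit belonged to c108642.graph_c0, which went from 1 count in acclimated leaves to 607 counts in acclimated and frozen leaves (log2 ratio 8.82, 95% interval 6.95 to 14.74). The same unigene reached 4086 counts without acclimation. For c101660.graph_c0 the counts were 30 in the control, 15 in acclimated leaves, 103 in acclimated and frozen leaves and 1997 in leaves frozen without acclimation. Its log2 ratio at the step was 2.92 (2.18 to 3.85), and it ended at 7.59 FPKM against 144 FPKM without acclimation.

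For other members the freezing step after acclimation changed little. The whole interval lay within 2-fold for 10 members, which had 22.4 to 95.5 FPKM in leaves frozen without acclimation. The member c107363.graph_c0 had 585 counts in acclimated leaves and 592 counts in acclimated and frozen leaves, a ratio of 1.15 (1.03 to 1.29), against 2789 counts in leaves frozen without acclimation. Another of the 10, c110321.graph_c0, had 22, 128, 141 and 589 counts in treatment order. It was called higher in acclimated leaves than in the control (log2 ratio 2.59, interval 1.96 to 3.34) and then differed by less than 2-fold when those leaves were frozen. A further 77 members were neither called nor held within 2-fold, so that their behaviour at this step was not resolved at this depth, and 4 had no count in either library.

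**Figure D4:**
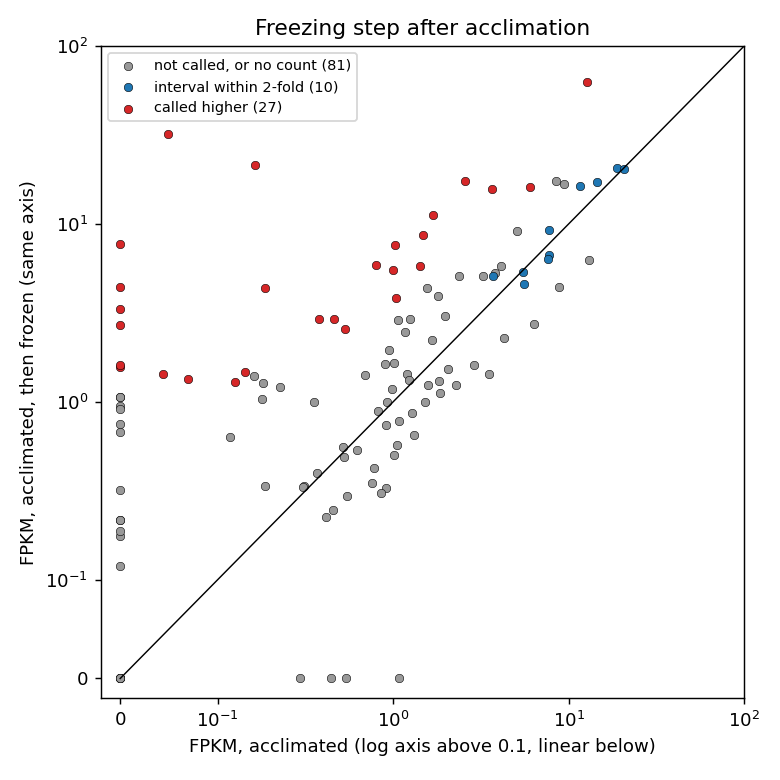
FPKM of the 118 unigenes in acclimated leaves (x axis) and in acclimated and frozen leaves (y axis), each linear below 0.1 and logarithmic above, with the line of equal levels. The 27 red points, called higher, all lie above the line, the 10 blue points with an interval within 2-fold lie along it at 3.69 FPKM or more in acclimated leaves, and the 81 grey points lie on both sides of it.

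The members with the lowest upper limits at this step were below acclimated leaves without being called. Some members with few counts had lower ratios and wider intervals. The lowest upper limit was that of c107005.graph_c0, with 195 counts in acclimated leaves and 78 counts in acclimated and frozen leaves (log2 ratio -1.13, interval -1.53 to -0.75). Its control had 169 counts and the library frozen without acclimation 1012 counts. The second, c110642.graph_c0, had 140, 130, 61 and 1452 counts in treatment order. Its log2 ratio at the step was -0.90 (-1.37 to -0.46), so in these libraries it was lowest in the acclimated and frozen one and highest in the one frozen without acclimation. Whether the responses of such members to freezing differ between the leaf states was not tested, because 1 library per treatment leaves no spread for it.

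Members were called in both directions in acclimated leaves, and how their shares compared with other unigenes turned on depth. Of the 104 members with a count in the control or in acclimated leaves, 10 were called higher in acclimated leaves (9.62%) and 7 lower (6.73%). The shares over all 78314 unigenes compared were 4.79% and 4.02%, and among 18650 other unigenes at 5 FPKM or more in leaves frozen without acclimation they were 11.0% and 8.31%. Those others had medians of 244 counts in the control and 239 counts in acclimated leaves, against 8.5 and 7.5 counts for the members. Call shares at such unlike depth do not show whether the sets respond alike. Where at least 10 counts over both libraries were required, 10 of 78 members were called higher and 7 lower. Of all unigenes with that many counts, 9.74% were called higher and 8.37% lower, so the members were not far from them. The median log2 ratio of the 104 members was 0.18 (0.08 with zeros at the limit), against 0.04 (0.08) over all 78314 unigenes. The interval was held within 2-fold for 10 members, and 77 were neither called nor held within it, so most members were not resolved here.

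The 10 members called higher in acclimated leaves had medians of 0.475 FPKM in the control, 3.73 FPKM in acclimated leaves, 7.96 FPKM in acclimated and frozen leaves and 55.3 FPKM in leaves frozen without acclimation. The highest lower limit was that of c108380.graph_c0, with 1 count in the control and 46 counts in acclimated leaves (log2 ratio 5.02, interval 3.05 to 10.94). It had 59 counts in acclimated and frozen leaves and 438 counts in leaves frozen without acclimation. Next came c107067.graph_c0, with 4, 48, 191 and 1876 counts in treatment order. It was called higher at each of the steps from control to acclimated (log2 ratio 3.51, interval 2.22 to 5.60) and from acclimated to acclimated and frozen (2.17, 1.72 to 2.67).

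The 7 members called lower in acclimated leaves had medians of 2.69, 0.187, 0.337 and 12.4 FPKM in treatment order. The lowest upper limit was that of c95296.graph_c0, which went from 285 counts in the control to 37 counts in acclimated leaves (log2 ratio -2.85, interval -3.40 to -2.37). It stood at 187 counts in acclimated and frozen leaves and 1522 counts in leaves frozen without acclimation. It was called higher in acclimated and frozen than in acclimated leaves (2.51, 2.01 to 3.07) and had no call against the control (-0.34, -0.62 to -0.07). The most abundant member, c94337.graph_c0, was also called lower in acclimated leaves (-1.61, -1.79 to -1.44) and higher at the following freezing step (2.38, 2.21 to 2.55).

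At the end of the whole sequence more members stood above the control than below it. Of the 114 compared, 33 were called higher in acclimated and frozen leaves than in the control (28.9%) and 1 lower (0.877%), beside 6.98% and 5.15% of all 80023 unigenes compared. Among 18675 other unigenes at 5 FPKM or more in leaves frozen without acclimation the shares were 14.7% and 10.6%. Depth differed here too, with medians of 243 counts in the control and 214 counts in acclimated and frozen leaves, against 8.5 and 15 for the members. The median log2 ratio was 1.32 (0.87 with zeros at the limit), against -0.04 over all, which also changed sign with zeros at the limit (0.19). The 33 members had medians of 0.332 FPKM in the control, 1.04 FPKM in acclimated leaves, 5.82 FPKM in acclimated and frozen leaves and 40.2 FPKM in leaves frozen without acclimation. This comparison shares a library with each of the preceding ones, so the counts are set side by side and are not separate evidence. The single member called lower was c89879.graph_c0, with 22 counts in the control and 0 in acclimated and frozen leaves (at least 6.10-fold lower, with the limit of 3 counts). It had 80 counts in leaves frozen without acclimation and lay closest to the 4-fold limit of the rule.

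The comparisons that the rule used are given only for completeness. Against the control, 115 of the 118 members were called higher after freezing without acclimation, where 3.03% of all 81889 unigenes compared were called higher. The median log2 ratio of the members was 3.86, or 3.64 with zeros at the limit. Against the same library, 114 members were called lower in acclimated and frozen leaves, where 2.84% of all 81786 were called lower. Acclimated and frozen leaves held a median of 11.2% of the level in leaves frozen without acclimation, with 9 members at 1% or less, 17 above 1 and up to 5%, 25 above 5 and up to 10%, 44 above 10 and up to 20%, and 23 above 20%.

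Which library came second was not fixed by the rule. It was the acclimated and frozen one for 66 members (55.9%), the acclimated one for 25 (21.2%) and the control for 24 (20.3%), while 3 had no count in any. Among the other 18675 unigenes at 5 FPKM or more in leaves frozen without acclimation, the highest of these 3 libraries was the acclimated and frozen one for 23.7%, the acclimated one for 32.7% and the control for 43.6%. Most members thus had their second highest level in the other frozen library, by a small majority. The share was 52.3% of the 88 members found with TMM-rescaled FPKM and 53.8% of the 80 found with median-of-ratios factors. Shares of the other unigenes were not computed with these scalings.

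The abundant members and the scarce ones differed in how often the step could be read. The 21 members at 50 FPKM or more in leaves frozen without acclimation had medians of 3.47, 6.03 and 16.1 FPKM in control, acclimated, and acclimated and frozen leaves, and 10 were called higher at the freezing step after acclimation. Of the 51 members at 10 to 50 FPKM, with medians of 1.10, 1.04 and 2.46 FPKM, 14 were called. Of the 46 members under 10 FPKM, with medians of 0.370, 0.485 and 0.662 FPKM, 3 were called. Fewer counts also mean wider intervals, and the share called follows depth as well as response.

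The members were short among expressed unigenes. The length implied by count, total and FPKM had a median of 732 bases (quartiles 441 and 1114) for the members and 1158 bases (755 and 1734) for the other 18675 unigenes at 5 FPKM or more in leaves frozen without acclimation. At least 1000 bases were found in 34.7% of members and in 59.4% of those others. The 96 members with at least 50 counts in leaves frozen without acclimation had a median of 924.5 bases. At a given FPKM a limit on counts removes the shorter unigenes. The other unigenes were not filtered in this way, so their median is no match for that value. The 46 members under 10 FPKM had a median of 450.2 bases and the 21 at 50 FPKM or more 1159 bases, so the scarcer members were also the shorter ones. How far assembly of scarce transcripts into fragments enters this was not tested.

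Some members shared the first part of their identifier with another unigene, and the relatives did not all share the pattern. This held for 8 members, of which 2, c108380.graph_c0 and c108380.graph_c1, were relatives of each other. The latter had 0, 13, 26 and 109 counts in treatment order, and its levels rank the libraries as those of its relative do. The member c96175.graph_c1 had 2.26, 2.88, 1.61 and 37.6 FPKM, while c96175.graph_c0 had 37.0, 39.6, 34.3 and 41.0 FPKM and so was nearly level. The member c107974.graph_c1 had 0.830, 0, 3.32 and 16.6 FPKM, while c107974.graph_c0 had 12.6, 8.91, 99.0 and 179 FPKM and was high in both frozen libraries, although both unigenes ranked the libraries in the same way. These pairs were picked after their values were seen. The sources used here do not say what the shared part means, and reads may be split between similar unigenes.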

How the data were processed

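RNA-seq of leaves was used, with 1 library per treatment. The deposited table gives, per the file headers, a raw count and an FPKM per unigene and library. These deposited counts are whole and unscaled. The FPKM deposited by the authors equals the count divided by total counts and by 1 length per unigene (largest relative difference 2.04e-08), from which lengths were taken. The submitters' processing notes name Bowtie 0.12.2, Cufflinks and the mouse build mm8, with no role for any of them. The assembler, counting rule and use of strand are not given in the sources used here.

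Ratios used counts scaled by TMM (edgeR 4.0.16, R 4.3.3) with exact (Clopper-Pearson) 95% intervals from scipy 1.17.1. Log2 ratios used a prior count of 0.5. No filter on low counts was applied beyond at least 1 count in either library compared. The ratio and call functions were tested on simulated data. Totals, median-of-ratios factors (DESeq2 1.42.0), other limits and other call rules were tried as alternatives. Every fit over the 4 libraries would use the library that chose the members, and none was run.

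Members, lists and comparisons were chosen with earlier results of these data known. Named members came from fixed ranks: highest level, largest gap to the other libraries, highest and lowest limits of the ratios at acclimation and at the freezing step, and closeness to the rule's limits. The leading few of each rank are named, with some exceptions. The members c107363.graph_c0, c110321.graph_c0 and c101660.graph_c0 stood further down the ranks that list them. They were picked with their values known, as were the pairs that share the first part of an identifier. No gene or marker list could be matched to the identifiers, and no sequence of a unigene was used here.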

Additional observations from a re-analysis of the deposited data

How the results depend on the processing

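Of 82 alternative values of the set results, 62 stayed within the limits taken as unchanged (1.5 times for a count, the counting interval of a share, or the rank interval of a median). This tally is no measure of robustness. It includes the comparisons that the rule used, whose outcome the rule largely fixed, and a filter on counts that all called members passed. Counts were also compared as such where fewer members entered. The size of the set was decided by its thresholds: 314 unigenes at a level of at least 2 FPKM, 72 at 10 FPKM, 206 at 3 times the other libraries, 38 at 8 times, and 44 where the whole interval had to lie beyond 4-fold. With calls for any interval clear of equal levels, the members called higher and lower were 27 and 18 for acclimated against control (15.3% and 16.3% of all unigenes compared), 52 and 8 at the freezing step after acclimation (11.4% and 12.3% of all), and 57 and 12 for acclimated and frozen against control (17.8% and 16.7% of all). A difference of 1 in log2(FPKM + 1) gave 1 lower at the freezing step (3.39% of all) and 4 lower against control (10.4%), and total counts gave 2 lower against control (5.75%). Among members found with TMM-rescaled FPKM, 6 of 76 compared were higher after acclimation (4.79% of all). Of 84 compared, 0 were lower in acclimated and frozen leaves than in the control (5.15% of all). For the 44 members whose whole interval lay beyond 4-fold, an alternative chosen after seeing the data, 15 of 40 compared were higher at the freezing step (3.46% of all). Against the control, 16 of 40 compared were higher (6.98% of all). Of the unigenes found by the rule for any library, leaves frozen without acclimation held 29.9% as deposited, 20.2% after TMM rescaling and 17.4% with median-of-ratios factors, also chosen after seeing the data. All 142 log2 ratios of named members under other scalings kept their direction where called and their call. No paired analysis was possible because each treatment has 1 library. Depth limits more than the 22 members with fewer than 50 counts in leaves frozen without acclimation. For acclimated against control 77 members were neither called nor held within 2-fold, and 77 at the freezing step after acclimation. The cause of the shifts among alternatives was not tested.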
